A study of Mus musculus with 4 samples.

Results

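Gria1, Gria2, Gria3 and Gria4 encode the subunits GluA1 to GluA4 of the AMPA receptor, and all 4 were found by symbol among the 32285 gene rows of the count matrices. They were chosen by a measured value: Gria2 had the largest increase of any gene in the library labelled Mll3/4 deleted over the control library. The level of Gria2 in that comparison is therefore given as a description. The cells were Kit+ mouse bone marrow cells carrying CD45.2, collected 10 weeks after transplantation. A single library stood for each of the 4 groups, labelled control, Mll3 deleted, Mll4 deleted or Mll3/4 deleted. Kmt2c codes for Mll3 and Kmt2d for Mll4, enzymes that methylate histone H3 at enhancers. The labels name no strain, no allele or Cre driver, no number of donors and no age of the animals apart from the time after transplantation. With 1 library per group no test was possible, and each comparison below is between libraries.

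AMPA receptors are glutamate-gated cation channels, best known for fast excitatory transmission between neurons, and they assemble from the subunits of this family. GluA2 is the subunit that keeps calcium out of the channel once its transcript has been edited by the adenosine deaminase ADAR2, the product of Adarb1. Outside the nervous system the repressor REST, which binds the RE1 element, is known to hold many neuronal genes silent, and Gria2 is one of the genes known to carry such an element. None of the 4 genes is a usual marker of a marrow cell type.

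On GRCm38 in GENCODE M21, Gria1 (ENSMUSG00000020524) lies at chr11:57011387-57330244 on the plus strand and Gria2 (ENSMUSG00000033981) at chr3:80681450-80802835 on the minus strand. Gria3 (ENSMUSG00000001986) lies at chrX:41400854-41678601 on the plus strand and Gria4 (ENSMUSG00000025892) at chr9:4417896-4796234 on the minus strand. No other gene of the files overlapped any of them. RefSeq promoters on GRCm38.p6 were matched for 2 of the 4 genes, Gria2 and Gria4. The 250 bases before the start of Gria2, chr3:80802836-80803085 on the minus strand, are shown because the results turn on this gene and because they hold an RE1 core, in capitals.
Gria2 upstream: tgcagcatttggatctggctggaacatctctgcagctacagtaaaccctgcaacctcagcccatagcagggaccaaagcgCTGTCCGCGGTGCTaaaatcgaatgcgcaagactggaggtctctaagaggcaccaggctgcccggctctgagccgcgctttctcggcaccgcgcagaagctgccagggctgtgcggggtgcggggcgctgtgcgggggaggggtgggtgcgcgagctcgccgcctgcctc
The motif searched, AGCACC and GGACAG separated by any 2 bases on either strand, matched once, at chr3:80802992-80803005 and 170 to 157 bases before the start. Of 32851 promoters of 300 bases, 17 (0.0517%) held it, and the promoter of Gria4 did not. The palindrome of TCCC and GGGA separated by any 2 bases, bound by the B-lineage factor EBF1, was in 297 promoters (0.904%), and the E-box CAGGTG or its reverse complement was in 6640 (20.2%). Neither was in the promoter of Gria2 or of Gria4. The Gria2 promoter held 26 CpG dinucleotides, more than 83.1% of the promoters, against a median of 7, and that of Gria4 held 17. A match describes the letters and is not a measured binding site.

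The libraries held 6622 to 10001 barcodes, and 7146 control, 5860 Mll3, 5350 Mll4 and 6917 Mll3/4 cells were kept. Their median depth was 15754, 16963.5, 5142 and 9965 unique molecular identifiers (UMIs) in that order, and any pair of libraries shared 9 to 24 barcodes. Levels are given in CPM, UMI counts scaled to a common library total, and intervals are 95% and cover counting error only. Kmt2c, over all kept cells, was at 47.9 CPM in control against 27.2, 59.2 and 34.8 CPM in the libraries labelled Mll3, Mll4 and Mll3/4 deleted, and Kmt2d was at 25.8, 21.6, 24.99 and 24.7 CPM. Kmt2d in the B-cell progenitor-like class defined below was at 40.2, 25.3, 16.8 and 24.7 CPM, the third from 6 counts. Over all cells Kmt2c was thus lower in both libraries whose label names Mll3. Kmt2d was close to its control level in both whose label names Mll4. The text therefore writes of Mll3-labelled, Mll4-labelled or Mll3/4-labelled cells, and every direction rests on the label. A 3′ count need not change when an upstream exon is deleted. Kit was detected in all 4 libraries at 105 to 190 CPM and Ptprc, the CD45 gene, at 66.3 to 216 CPM. Clusters named from marker genes as B-cell progenitor-like held 6.59% of control cells, 6.30% of Mll3-labelled, 2.67% of Mll4-labelled and 98.7% of Mll3/4-labelled cells. The control and single-deletion cells of this class lay almost wholly in clusters 17 and 22, and the Mll3/4-labelled cells in clusters 0, 1, 5, 20 and 23, so that library and cluster cannot be told apart. The 4 genes were left out of the clustering.

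Gria2 was close to absent from every library but the Mll3/4-labelled one. Over all kept cells it had 62 counts in control (0.404 CPM, 0.309 to 0.517), 16 in Mll3-labelled cells (0.118 CPM, 0.0673 to 0.191), 16 in Mll4-labelled cells (0.488 CPM, 0.279 to 0.793) and 42703 in Mll3/4-labelled cells (549.9 CPM, 544.7 to 555.1). The last stood 1362-fold above control (1063- to 1777-fold), and the intervals of the control and Mll4-labelled libraries overlapped. On the log2 scale with 1 CPM added to each level, which understates the change of low genes, the differences from control were -0.33, 0.08 and 8.62. With each cell weighted equally they were -1.51, -0.38 and 7.47, so the Mll4-labelled one turned its sign. Over the 15158 genes with at least 20 counts in either library, 12% were at least 2-fold higher in Mll3/4-labelled cells and 11.7% at least 2-fold lower, and Gria2 had the largest difference, which is how it was chosen. At least 1 Gria2 UMI was found in 34 of 7146 control cells, 6 Mll3-labelled cells, 8 Mll4-labelled cells and 5759 Mll3/4-labelled cells (83.3%).

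Most Gria2 counts of the control and Mll4-labelled libraries also came from the B-cell progenitor-like class. In this class Gria2 had 46 counts in 471 control cells (14.5 CPM, 10.6 to 19.3), 1 count in 369 Mll3-labelled cells (0.347 CPM, 0.00879 to 1.93), 10 counts in 143 Mll4-labelled cells (28.1 CPM, 13.5 to 51.6) and 42616 counts in 6830 Mll3/4-labelled cells (561.6 CPM, 556.3 to 567.0). The control and Mll4-labelled intervals overlapped, the Mll3-labelled one lay below both, and the Mll3/4-labelled one lay above all of them. Within the class the Mll3/4-labelled level was 38.8 times that of control (29.1 to 53.1), a log2 difference of 5.19 (4.796 to 5.58), and 19 genes of 13456 had a larger one. The difference was 4.14 with each cell weighted equally and 5.80 in a class drawn by the B220 antibody. The control and Mll3/4-labelled cells of the class also differed in surface antibodies. B220 was found on 98.9% of the control and 14.0% of the Mll3/4-labelled cells. Median CD117 antibody counts were 54.5 and 56.5 in control clusters 17 and 22 and 131 to 378.5 in the Mll3/4-labelled clusters. Between the control and Mll3/4-labelled cells of the class, 9.45% of genes were at least 2-fold higher and 7.39% at least 2-fold lower. The within-class difference is thus smaller than the one over all cells, where the share of B-cell progenitor-like cells differs as well.

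Between the control and Mll3-labelled cells of the class the lower level was on the Mll3-labelled side. The control level was 41.6 times that of the Mll3-labelled library (7.11 to 1680), a log2 difference of -3.52 (-4.35 to -2.69), where 0.417% of 8869 genes were at least 2-fold higher and 1.89% at least 2-fold lower, and 2 genes had a lower value than Gria2. In the Mll4-labelled library the difference was 0.91 (-0.04 to 1.86), with 8.19% of genes at least 2-fold higher and 8.52% at least 2-fold lower, and it was -0.10 with each cell weighted equally. The control cell with the most Gria2 UMIs carried 13 of the 46 counts. It had 2779 UMIs in all, lay in cluster 1 beside the Mll3/4-labelled cells and also held 2 Prlr, 1 Epha5 and 5 Rnase12 UMIs, and its barcode occurred in 1 library only. Without this cell the control level was 10.4 CPM from 33 counts. The differences were then -3.08 for the Mll3-labelled, 1.35 for the Mll4-labelled and 5.63 for the Mll3/4-labelled library.

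Outside the B-cell progenitor-like class a Gria2 UMI was found in 8 of 6675 control cells (0.120%), 5 of 5491 Mll3-labelled cells (0.0911%), 3 of 5207 Mll4-labelled cells (0.0576%) and 14 of the 87 Mll3/4-labelled cells that were left (16.1%, 9.09 to 25.5%). HSC/MPP-like cells (haematopoietic stem cells and multipotent progenitors) had 16 counts in 8 of 1570 control cells (0.655 CPM, 0.375 to 1.06), of which 8 were in 1 cell, and 12 counts in 3 of 1099 Mll3-labelled cells (0.702 CPM, 0.362 to 1.23), of which 6 were in 1 cell. A single count was found in 426 Mll4-labelled cells of that class. Erythroid progenitor-like cells had 0 counts in 1659 control cells, which allows up to 0.0421 CPM, and monocyte/macrophage progenitor-like cells had 0 counts in control and both single-deletion libraries, which allows up to 0.703, 0.958 and 0.971 CPM. Among the 87 Mll3/4-labelled cells, 2 of 23 neutrophil-like cells and 1 of 13 HSC/MPP-like cells had a Gria2 UMI at median depths of 25126 and 22314 UMIs, against 84.1% of B-cell progenitor-like cells at 9936 UMIs. The 19 T/NK/innate lymphoid-like cells of that library had 56 counts, of which 45 were in 1 cell with 28592 UMIs against a class median of 6181, and 4 of the 19 held a UMI. Of the smaller classes, 2 of 4 monocyte/macrophage progenitor-like and 2 of 2 dendritic cell-like cells held one, as did 1 each of 2 erythroid progenitor-like, 5 granulocyte progenitor-like and 7 basophil/mast-like cells.

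**Figure D1:**
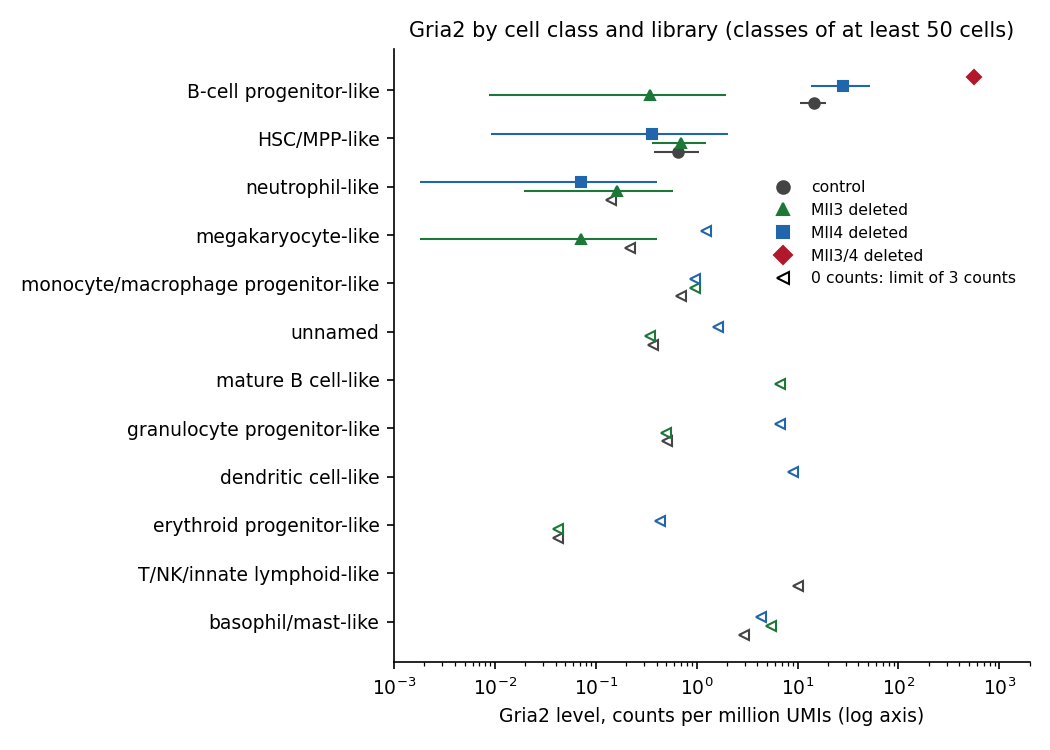
Gria2 level in CPM (log axis) by cell class for each library with at least 50 cells of the class; lines are 95% Poisson intervals and open triangles mark 0 counts at the limit of 3 counts. The Mll3/4-labelled B-cell progenitor-like cells stand at 561.6 CPM, and no other class and library passes 28.1 CPM.

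Gria2 was spread over most B-cell progenitor-like cells of the Mll3/4-labelled library and was not the product of a few. The median cell held 4 UMIs, the quartiles were 1 and 9, and the highest cell held 78. Because depth differed between libraries, each cell was also thinned to 3000 UMIs, which left out 113 control, 60 Mll3-labelled, 100 Mll4-labelled and 198 Mll3/4-labelled cells. After thinning, a Gria2 UMI was found in 14 of 358 control cells (3.91%, 2.15 to 6.47%), 1 of 309 Mll3-labelled cells (0.324%, 0.00819 to 1.79%), 2 of 43 Mll4-labelled cells (4.65%, 0.568 to 15.8%) and 4339 of 6632 Mll3/4-labelled cells (65.4%, 64.3 to 66.6%). Unthinned, the shares were 5.52%, 0.271%, 3.50% and 84.1%. The control and Mll4-labelled shares overlapped within their exact binomial intervals. In the thinned Mll3/4-labelled cells the variance of the Gria2 count was 2.79 times its mean, so the cells varied more than counting alone gives.

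**Figure D2:**
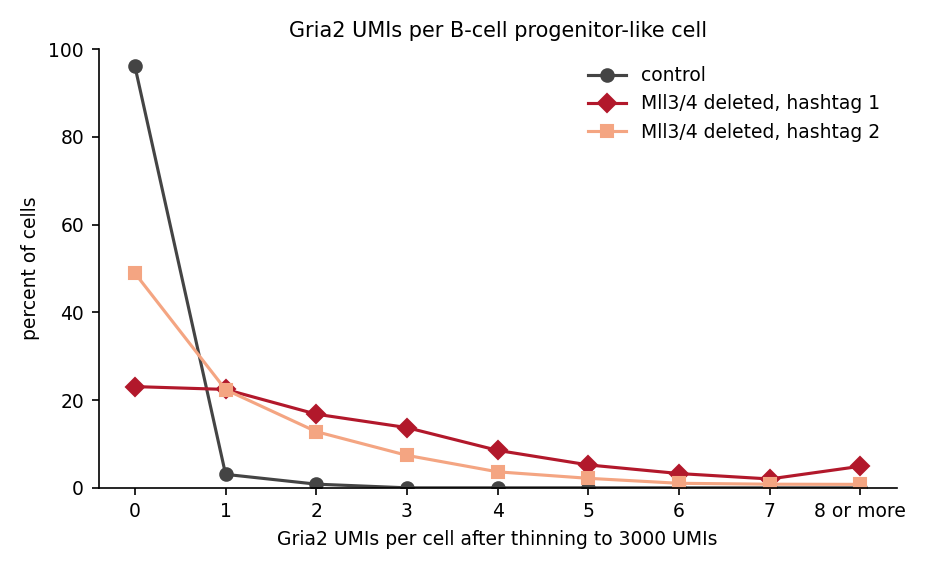
Percent of B-cell progenitor-like cells (y axis) by number of Gria2 UMIs per cell after thinning to 3000 UMIs (x axis), for the control library and the 2 hashtags of the Mll3/4-labelled library. Nearly all control cells hold 0, while the Mll3/4-labelled cells spread to 8 or more, further for hashtag 1 than for hashtag 2.

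The control cells with Gria2 were compared with those without it. Of the 26 positive cells, 17 had 1 UMI, 8 had 2 and 1 had 13, and their median depth was 3552.5 UMIs against 4495 in the 445 negative cells. Cluster 17 held 24 of them at 25.4 CPM (17.4 to 35.8), and cluster 22, where the division marker Mki67 stood at 1400 CPM against 120 CPM in cluster 17, had 1 count among 154 cells (0.521 CPM). Cluster 17 also had 8 counts among 75 Mll4-labelled cells (64.5 CPM, 27.8 to 127) and 1 count among 216 Mll3-labelled cells (0.922 CPM). The low control level thus lay in the B-cell progenitor-like cluster with little Mki67. Mki67 itself was found in 23.1% of positive and 47.0% of negative control cells, against 53.0% of positive and 45.4% of negative Mll3/4-labelled cells. Of the 5 positive Mll4-labelled cells 3 held Mki67, 3 held Epha5 and 1 held Prlr, and of the 138 negative ones 74, 6 and 3 did. Prlr, the prolactin receptor gene, was found in 3.85% of positive and 3.82% of negative control cells, whereas in the Mll3/4-labelled library it was in 82.6% of positive and 70.0% of negative cells.

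Gria2 was present in all 5 Mll3/4-labelled clusters of the class, dividing or not, at different levels. Cluster 1 was highest at 852 CPM (839 to 866) over 2064 cells, followed by cluster 0 at 522 CPM (514 to 530) over 2766 cells. The clusters rich in Mki67 came next, cluster 20 at 485 CPM (466 to 504) with Mki67 at 1290 CPM and cluster 5 at 428 CPM (419 to 436) with Mki67 at 1642 CPM. Cluster 23, whose 214 cells had a median of 3652.5 UMIs, was lowest at 103 CPM (82.6 to 127). None of these intervals overlapped. Cluster 1 also had the highest levels of Ebf1 (2748 CPM), Rag1 (686 CPM) and Il7r (1215 CPM), genes of the early B lineage, and cluster 23 the lowest Ebf1 (417 CPM).

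Each library held cells stained with either of 2 hashtag antibodies, and the labels do not say what the hashtags mark. In the Mll3/4-labelled B-cell progenitor-like cells Gria2 was at 739.8 CPM (731 to 748) in 3672 cells of hashtag 1 and 355 CPM (349 to 361) in 2980 cells of hashtag 2. The log2 difference was 1.06, where 1.02% of 12632 genes were at least 2-fold higher with hashtag 1 and 0.261% at least 2-fold lower, and the median over all genes was 0.01. Assigning each cell the hashtag with the larger count gave 0.995, just under 2-fold. The ratio was 1.99 in cluster 0 (1.92 to 2.06), 1.91 in cluster 1 (1.84 to 1.98), 2.10 in cluster 5 (2.01 to 2.20), 2.39 in cluster 20 (2.19 to 2.61) and 1.91 in cluster 23 (1.18 to 3.16). Hashtag 1 was thus higher in all 5 clusters. After thinning, 76.9% of hashtag 1 cells and 51.1% of hashtag 2 cells held a Gria2 UMI. Cells above the thresholds of both hashtags were at 653 CPM (132 cells) and cells of neither at 633 CPM (46 cells).

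Gria2 ranked 118 of the 12632 genes by how far hashtag 1 lay above hashtag 2. Prlr was at 369 and 344 CPM with hashtags 1 and 2, Rnase12 at 709.9 and 686 CPM, Epha5 at 177 and 122 CPM (0.53 on the log2 scale), and Gria3 at 5.42 and 4.89 CPM. Further apart than Gria2 were Gm15472 (36.1 and 2.23 CPM), Colec12 (17.7 and 0.724 CPM), Crisp1 (66.8 and 6.08 CPM) and, in the other direction, Mtus2 (0.439 and 10.6 CPM) and Lyz2 (1.63 and 9.21 CPM). These 5 were named after their values had been seen. The median count of the CD117 antibody, which binds the Kit protein, was 186 with hashtag 1 and 368 with hashtag 2. Cells of each hashtag were also divided at the median count of the CD117, Sca1, B220 and CD127 antibodies. These subsets had Gria2 at 687 to 799 CPM within hashtag 1 and at 335 to 371 CPM within hashtag 2. Intervals of the low and high subsets lay apart for B220 (799 and 687 CPM) and Sca1 (756 and 724 CPM) within hashtag 1, and for CD127 (335 and 371 CPM) and Sca1 (339 and 369.9 CPM) within hashtag 2, and they overlapped for CD117 in both. In the control library 29 counts fell in 197 cells of hashtag 1 (21.2 CPM, 14.2 to 30.4) and 17 in 272 cells of hashtag 2 (9.43 CPM, 5.50 to 15.1), and without the cell of 13 UMIs hashtag 1 had 16 counts (11.7 CPM, 6.68 to 18.99). All 10 counts of the Mll4-labelled class were in its 64 cells of hashtag 1, and 78 cells of hashtag 2 had 0, which allows up to 16.6 CPM.

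**Figure D3:**
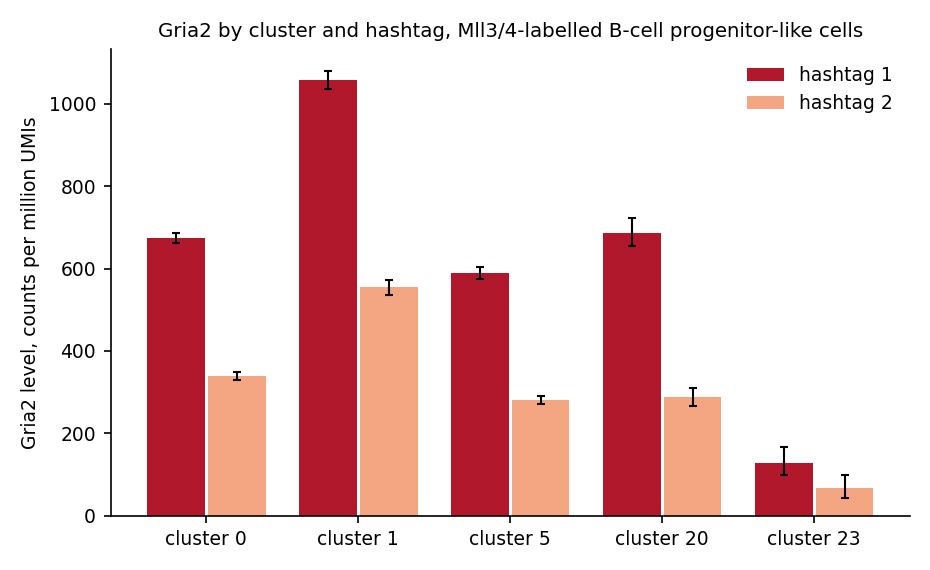
Gria2 level in CPM in the Mll3/4-labelled B-cell progenitor-like cells, by Leiden cluster and hashtag; bars start at 0 and error bars are 95% Poisson intervals. Hashtag 1 exceeds hashtag 2 in all 5 clusters, from 129 against 67.5 CPM in cluster 23 to 1058 against 554 CPM in cluster 1.

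The genes whose pattern was most like that of Gria2 were taken from 12854 genes over 60 units of library and cluster with at least 50 cells. The likeness is the Pearson correlation of log2 levels, and the units share 4 libraries and their depth. It was highest for Prlr (0.957), Adgrf1 (0.957), an adhesion G protein-coupled receptor gene, and Trpc4 (0.946), a cation channel gene. Syt13 (0.942), of the synaptotagmin family, Epha5 (0.942), an ephrin receptor gene, and Mab21l2 (0.939) came next. Efna5 (0.930), an ephrin gene, Ighv1-23 (0.925), a heavy chain variable segment, Pcdh19 (0.923), a protocadherin gene, and Spats2l (0.923) completed the 10. All of these had a median of 0 CPM over the 55 units of the other libraries. The ranking picks such genes, because Gria2 was itself high in the Mll3/4-labelled units and near 0 in most others. These medians therefore describe the choice and are no separate result. Prlr was at a median of 312 CPM in the 5 Mll3/4-labelled units against at most 24.2 CPM in any other unit. The ranges of the 2 kinds of unit overlapped for Trpc4, Epha5, Efna5 and Pcdh19, with Epha5 at 91.3 CPM in its lowest Mll3/4-labelled unit and at 105 CPM in the highest other one.

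Gria3 was the other member with at least 20 counts in these libraries, and its highest level was in monocyte/macrophage progenitor-like cells. There it was at 116 CPM in control cells (106 to 127), 146 CPM in Mll3-labelled cells (133 to 160), 237 CPM in Mll4-labelled cells (219.8 to 254) and 147 CPM in the 4 Mll3/4-labelled cells (88.7 to 230.0). It was found in 88.4%, 86.6% and 72.4% of the 198, 149 and 485 cells of the first 3 libraries. With every cell thinned to 3000 UMIs, which left out 0, 1 and 9 shallower cells, the shares were 25.8% (19.8 to 32.4), 24.3% (17.7 to 32.1) and 47.3% (42.7 to 51.9). In erythroid progenitor-like cells thinned alike they were 0.244% (0.0665 to 0.623), 0.678% (0.339 to 1.21) and 1.42% (0.573 to 2.90). These came from 4, 11 and 7 cells, and the intervals overlapped. Median depths in UMIs were 21209, 20972 and 6287 in the monocyte/macrophage class and 46139, 45168 and 12219 in the erythroid class. Its level was lower in the other control classes, at 35.1 CPM (30.5 to 40.2) in granulocyte progenitor-like and 16.7 CPM (15.1 to 18.4) in HSC/MPP-like cells. Basophil/mast-like cells were at 10.7 CPM (5.35 to 19.2), B-cell progenitor-like at 4.09 CPM (2.18 to 6.99), megakaryocyte-like at 2.46 CPM (1.70 to 3.43), neutrophil-like at 2.17 CPM (1.59 to 2.90) and erythroid progenitor-like at 0.562 CPM (0.401 to 0.765). In that order, the intervals of HSC/MPP-like and basophil/mast-like cells overlapped, as did those of basophil/mast-like and B-cell progenitor-like, B-cell progenitor-like and megakaryocyte-like, and megakaryocyte-like and neutrophil-like cells. Cluster 16, unnamed because its leading genes mixed monocyte and granulocyte markers, was at 68.9 CPM in control cells (204 cells), 84.6 CPM in Mll3-labelled cells and 206 CPM in Mll4-labelled cells.

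Gria3 was higher in the Mll4-labelled library than in control in each of 8 named classes with at least 50 cells in both, with overlapping intervals in B-cell progenitor-like cells alone. How many of all genes did the same was not counted, so the count of classes is not shown to be particular to Gria3. The all-gene median log2 difference was 0.21 in monocyte/macrophage progenitor-like, 0.14 in HSC/MPP-like and 0.10 in B-cell progenitor-like cells. Cells of a class did not always share clusters between the libraries: 1248 of the control neutrophil-like cells lay in cluster 2, which held 27 Mll4-labelled ones, and 1662 and 695 of the Mll4-labelled ones lay in clusters 4 and 12. At a clustering resolution of 2 the monocyte/macrophage class had 450 Mll4-labelled and 0 control cells in one cluster and 40 and 192 in the other, and the HSC/MPP class had a cluster of 239 Mll4-labelled cells and 1 control cell. Library and cluster cannot be told apart there. Free RNA, which was not corrected for, could reach every class of a library. Barcodes with too few UMIs to be kept had Gria3 at 364 CPM in the Mll4-labelled library and 37.7 CPM in control. Whether free RNA added to the Gria3 level of the classes was not tested. Over all kept cells Gria3 was at 10.6 CPM in control cells (10.1 to 11.2), 12.7 CPM in Mll3-labelled cells (12.1 to 13.3), 41.4 CPM in Mll4-labelled cells (39.3 to 43.7) and 6.104 CPM in Mll3/4-labelled cells (5.57 to 6.68). No 2 of these intervals overlapped. The log2 differences from control were 0.24, 1.87 and -0.71, where 0.199% of 14550, 5.74% of 14452 and 12% of 15158 genes were at least 2-fold higher and 0.46%, 2.91% and 11.7% at least 2-fold lower. Monocyte/macrophage progenitor-like cells, where Gria3 is highest, made up 2.77% of control, 2.54% of Mll3-labelled, 9.07% of Mll4-labelled and 0.0578% of Mll3/4-labelled cells. Within that class the log2 difference of the Mll4-labelled library was 1.02 (0.86 to 1.18), where 7.19% of 9322 genes were at least 2-fold higher and 2.64% at least 2-fold lower, and the median over all genes was 0.21. Trimmed mean scaling, which divides out such a shift, gave 0.81, below the 2-fold line. The difference was 1.05 (0.74 to 1.36) in HSC/MPP-like cells, where 4.08% of 12053 genes were at least 2-fold higher and 2.96% at least 2-fold lower, and the all-gene median was 0.14. Trimmed mean scaling gave 0.83 there and another clustering seed 0.86, both below the 2-fold line. For the Mll3-labelled cells the differences were 0.33 (0.15 to 0.51) and 0.22 (0.02 to 0.41) in the same 2 classes. There 0.362% and 0.313% of genes were at least 2-fold higher and 0.779% and 0.552% at least 2-fold lower.

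In the remaining classes the Mll4-labelled library had Gria3 at 100.5 CPM in granulocyte progenitor-like, 31.5 CPM in basophil/mast-like and 9.94 CPM in megakaryocyte-like cells. It was at 4.32 CPM in neutrophil-like and 2.62 CPM in erythroid progenitor-like cells, and 4 counts in B-cell progenitor-like cells gave 11.2 CPM (3.06 to 28.7). Both hashtags of the Mll4-labelled monocyte/macrophage progenitor-like cells were above both of control, at 242 and 236 CPM against 106 and 123 CPM. This library was the shallowest, and its cells also differed in transcripts of the sex chromosomes, on one of which Gria3 lies. Xist, expressed from the inactive X chromosome, was at 0.519 CPM against 955 to 1839 CPM in the other 3 libraries, and the Y-linked Eif2s3y was at 65.7 CPM. Sex and the deletion cannot be told apart in this library.

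In B-cell progenitor-like cells Gria3 did not go with Gria2. It had 13 counts in control (4.09 CPM), 7 in Mll3-labelled cells (2.43 CPM, 0.977 to 5.01) and 391 in Mll3/4-labelled cells (5.15 CPM, 4.65 to 5.69), a log2 difference of the last from control of 0.27 (-0.37 to 0.92). That interval includes 0, and without the added 1 CPM the ratio was 1.26 (0.729 to 2.39). The sign turned when each cell was weighted equally (-0.56) and when the class was drawn by the B220 antibody (-0.66) or by UMIs of Ebf1, Cd79a and Vpreb1 or Igll1 (-0.44), so no direction was shown.

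**Figure D4:**
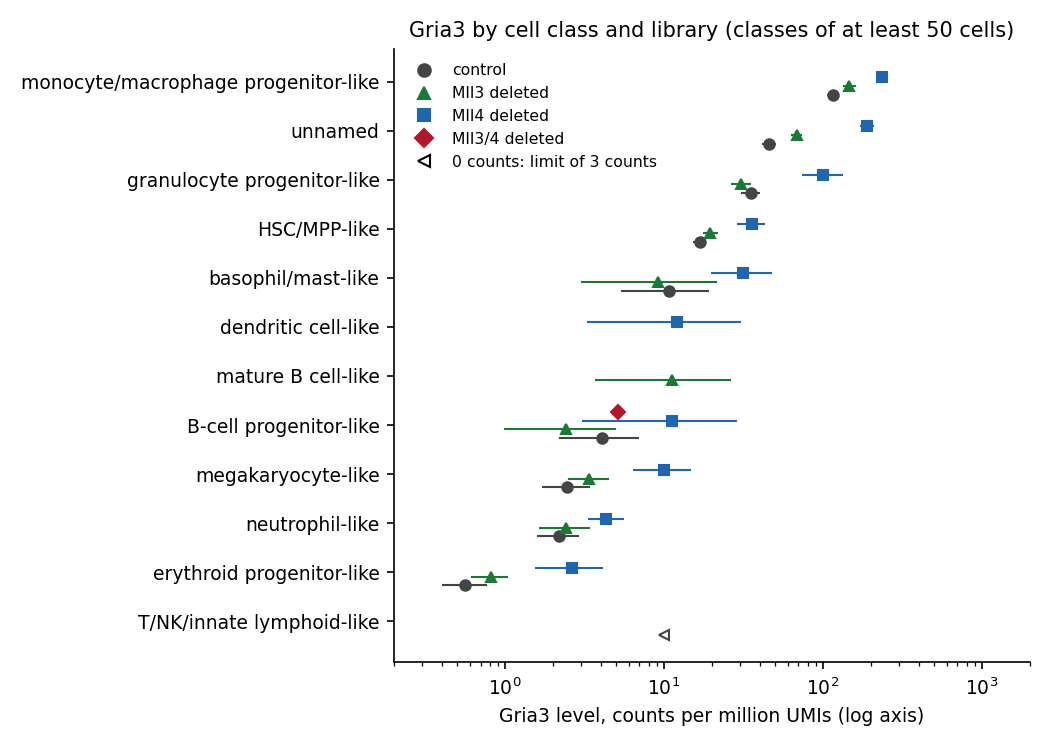
Gria3 level in CPM (log axis) by cell class for each library with at least 50 cells of the class; lines are 95% Poisson intervals and the open triangle marks 0 counts at the limit of 3 counts. Monocyte/macrophage progenitor-like cells are the highest named class in all 3 libraries shown there, and the Mll4-labelled library lies to the right of control in each class where both are drawn.

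The genes most like Gria3 over the same 60 units were Edem2 (0.842) and P4hb (0.808), of protein folding and quality control in the endoplasmic reticulum, Slc49a4 (0.826), Met (0.815), the hepatocyte growth factor receptor gene, and Gstm1 (0.810), a glutathione transferase gene. Glipr1 (0.807), F13a1 (0.804), coding for a coagulation factor subunit, Manba (0.804), a lysosomal mannosidase gene, Ms4a6c (0.796) and Ifitm7 (0.791) followed. F13a1 and Ms4a6c are 2 of the markers by which the monocyte class was named, so their likeness describes that naming too.

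Gria1 had 0 counts among all kept cells of all 4 libraries, which allows up to 0.0195 CPM in control cells, 0.0221 CPM in the Mll3-labelled, 0.0915 CPM in the Mll4-labelled and 0.0386 CPM in Mll3/4-labelled cells. Gria4 had 0, 2, 0 and 3 counts in the same order, each in a different cell. Both genes were thus at or below the level that this depth resolves, including in the cells where Gria2 was high. A 3′ library reads only the transcript end, and neither splice forms nor editing of Gria2 could be read from these counts.

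The other glutamate receptor genes were also nearly silent. None of the 7 genes for NMDA receptor subunits and none of the 8 metabotropic receptor genes reached 20 counts in the control or Mll3/4-labelled library. Among 7 kainate and delta receptor genes only Grik5, a kainate receptor subunit gene, was measured. It had 340 counts in control (2.21 CPM) and 1018 in Mll3/4-labelled cells (13.1 CPM), and in B-cell progenitor-like cells 7 counts (2.20 CPM) and 1009 counts (13.3 CPM), a ratio of 6.04 (2.92 to 15.1).

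Proteins that accompany AMPA receptors were counted from fixed lists. Of 21 auxiliary and assembly genes, 10 were measured in B-cell progenitor-like cells, and the median log2 difference of the Mll3/4-labelled library from control was 0.25 against 0.02 over all genes, or 0.00 with the 4 genes at 0 counts in control set to their bound. Of the 10, 1 was at least 2-fold higher and 0 were lower, against 9.45% and 7.39% of all genes. This was Cacng4, of the TARP family that carries AMPA receptors to the membrane, at 0 counts in control and 76 (1.0 CPM) in Mll3/4-labelled cells. Its level was at least 1.06-fold higher, so the call rests on the added 1 CPM. Cnih1 and Cnih4, of the cornichon family of cargo receptors, were at 50.3 and 112 CPM in control against 37.9 and 86.4 CPM in Mll3/4-labelled cells. Abhd6, a lipase known to hold back receptor delivery, was at 2.20 and 3.16 CPM. Of 10 measured over all kept cells, 1 was at least 2-fold higher and 1 was lower, against 12% and 11.7% of all genes. These were Abhd6 at 1.0 and 3.13 CPM (3.12-fold, 2.54 to 3.84) and Shisa8 at 2.61 and 0.322 CPM, both called with 1 CPM added. Shisa8 was a leading gene of the HSC/MPP-like cluster 6. The HSC/MPP-like class made up 22.0% of control and 0.188% of Mll3/4-labelled cells. Whether Shisa8 differed beyond this change in cell classes was not tested. Without the added 1 CPM, Porcn (3.60-fold, 2.40 to 5.47), Cpt1c (2.15-fold, 1.42 to 3.26), Shisa7 (22 counts against 1) and Cacng4 (76 counts against 0), all under 1 CPM in both libraries, were also more than 2-fold higher.

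Of 16 anchoring and trafficking genes, 13 were measured in B-cell progenitor-like cells, 3 were at least 2-fold higher (2 with genes at 0 in control set to their bound) and 1 was at least 2-fold lower, with a median of 0.13, against 9.45% and 7.39% of all genes. Of 14 measured over all kept cells, 5 were at least 2-fold higher and 1 was lower, against 12% and 11.7% of all genes. Dlg3 and Epb41l2 were 2 of these 5, at 5.18 and 13.4 CPM and at 12.9 and 55.04 CPM over all kept cells, but at 11.3 and 13.6 CPM and at 60.7 and 55.8 CPM in the class. Grip1, whose PDZ protein binds the tail of GluA2, had 1 count in control (0.314 CPM) and 399 in Mll3/4-labelled cells (5.26 CPM), a ratio of 16.7 (2.99 to 662). Over all kept cells Grip1 had 2 and 400 counts. Arc, an activity-regulated gene of receptor endocytosis, had 4 and 270 counts in the class (1.26 and 3.56 CPM, 2.83-fold, 1.09 to 10.5). Nptxr, a neuronal pentraxin receptor gene, had 0 and 139 counts (1.83 CPM), which makes it at least 1.94-fold higher. Dlg2, a scaffold gene of the postsynaptic density, went the other way, with 235 counts in control (73.9 CPM) and 24 in Mll3/4-labelled cells (0.316 CPM), a level 233.5-fold lower (153 to 372). Pick1, Dlg1 and Nsf, which also bind AMPA receptor subunits or their scaffold, differed by 0.10, 0.05 and 0.15 on the log2 scale.

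Of the editing enzymes, Adarb1 had 2 counts in control B-cell progenitor-like cells (0.629 CPM) and 394 in Mll3/4-labelled ones (5.19 CPM), a ratio of 8.26 (2.27 to 68.4). Adar, coding for the related enzyme ADAR1, was at 17.3 and 19.1 CPM, and Adarb2 was not measured. Of the 2 measured, 1 was thus at least 2-fold higher and 0 lower, against 9.45% and 7.39% of all genes. Over all kept cells Adarb1 was at 1.63 and 5.13 CPM (3.14-fold, 2.67 to 3.69). For glutamate transport and metabolism, 9 of 16 genes were measured in the class, 2 were at least 2-fold higher (1 with genes at 0 in control set to their bound) and 0 lower, with a median of 0.44, against 9.45% and 7.39% of all genes. Of 11 measured over all kept cells, 2 were higher and 2 lower, with a median of -0.05, against 12% and 11.7% of all genes. Slc1a5, a transporter of glutamine and other neutral amino acids, was at 81.1 and 216 CPM (2.66-fold, 2.35 to 3.02), and Slc1a3, a glial glutamate transporter gene, had 0 and 122 counts, which makes it at least 1.71-fold higher. Glul, the glutamine synthetase gene, was at 34.2 and 97.7 CPM over all kept cells (2.85-fold, 2.75 to 2.95), and Slc7a11, a cystine and glutamate exchanger gene, at 1.53 and 0.245 CPM, a level 6.25-fold lower (3.92 to 10.6). Whether Glul and Slc7a11 differed beyond the change in cell classes was not tested.

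**Figure D5:**
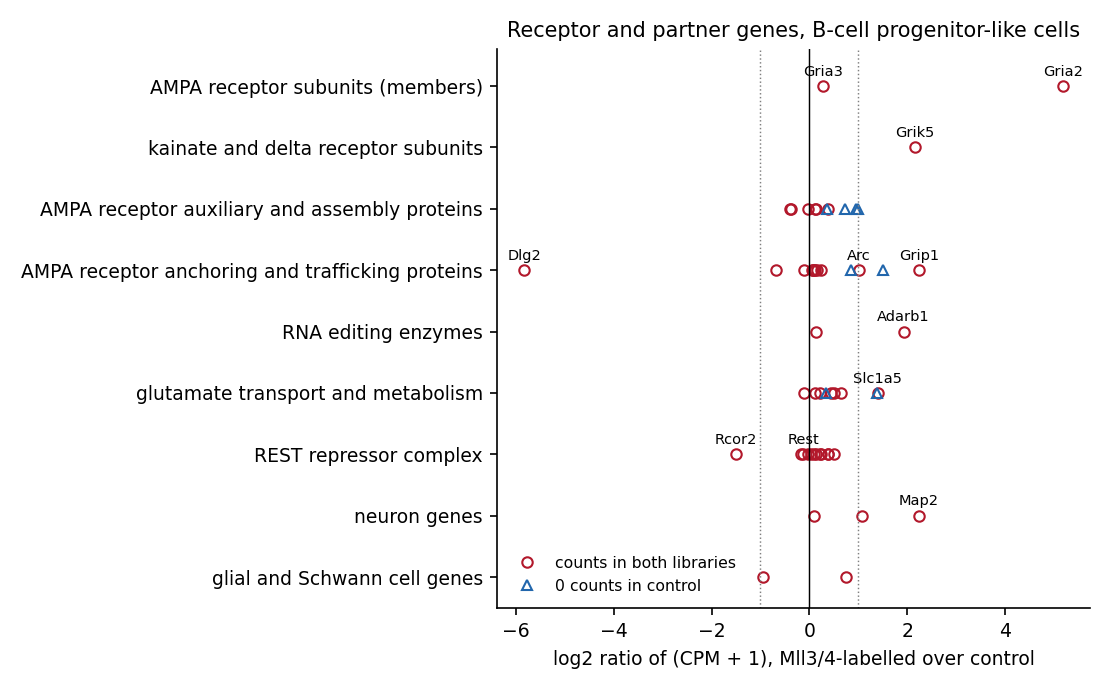
Log2 difference of the Mll3/4-labelled library from control within B-cell progenitor-like cells (x axis, with 1 CPM added to each level) for each measured gene of the lists (rows); dotted lines mark 2-fold, and triangles are genes with 0 counts in control, whose place depends on the added 1 CPM. Gria2 lies furthest to the right and Dlg2 furthest to the left, and Gria3 lies between the dotted lines.

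Repressor genes were read beside the RE1 element. All 12 genes of the REST complex list were measured in B-cell progenitor-like cells, with a median of 0.11. Of these, 0 were at least 2-fold higher and 1 was lower, against 9.45% and 7.39% of all genes. Rest was at 76.4 CPM in control against 70.2 CPM in Mll3/4-labelled cells. Rcor2, a corepressor gene, was at 9.11 CPM from 29 counts and 2.57 CPM, a level 3.55-fold lower (2.31 to 5.26). Kdm1a, the histone demethylase of the complex, was at 91.1 and 119 CPM. The 17 promoters with an RE1 core belonged to 16 genes, of which 4 were measured in the class: Gria2, Lca5 (12.3 and 9.79 CPM), Robo2 (0 and 159 counts) and Scamp5 (0 and 22 counts). These few genes allow no statement on the element.

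Markers of neurons and glia were read in the same cells, since all members are known from nervous tissue. Of 12 neuron genes, 4 were at 0 counts in the Mll3/4-labelled B-cell progenitor-like cells and 5 in control, and their summed levels were 9.22 and 3.77 CPM. Of the 12, 3 were measured in the class, 2 were at least 2-fold higher and 0 lower, against 9.45% and 7.39% of all genes. The 2 were Map2 and Syt1. Map2, a microtubule gene, had 2 counts in control and 510 in Mll3/4-labelled cells (6.72 CPM, 10.7-fold, 2.94 to 88.5), and Syt1, a synaptic vesicle gene, had 1 and 134 counts (5.62-fold, 0.991 to 224). The 9 glial and Schwann cell genes summed to 44.0 and 24.7 CPM in the class. Over all kept cells the neuron genes summed to 20.3, 21.2, 66.1 and 9.99 CPM in the order of the libraries. Ncam1, an adhesion molecule gene of that list, had 18.5 CPM over the control library and 1.09 CPM over the Mll3/4-labelled one, a level 16.9-fold lower (13.6 to 21.2). It was also a leading gene of the neutrophil-like cluster 2, where 1248 control and 12 Mll3/4-labelled cells lay. The share of the whole neutrophil-like class was 21.3% in control against 0.333% in the Mll3/4-labelled library. Whether Ncam1 or the summed neuron genes differed beyond this change in cell classes was not tested. Gria2 alone stood at 561.6 CPM in the class. Of 15 genes, Gria2 included, that reach within 1000 kb of it, 4 were measured in the class, and with 1 CPM added the other 3 differed by 0.55 (Pdgfc), 0.96 (Fam198b) and -0.60 (Tmem144) on the log2 scale. Pdgfc had 1 count in control (0.314 CPM) and 70 in Mll3/4-labelled cells (0.922 CPM), and Fam198b 0 and 72 counts, so their differences depend on the added 1 CPM.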

How the data were processed

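The deposited files hold UMI counts per gene and antibody in each barcode, made by the authors with Cell Ranger 6.1.2 on mm10, per the submitters' processing notes, and not normalized. The libraries used 10x Genomics 3′ version 3.1 chemistry with feature barcodes for 13 surface antibodies and 2 hashtags, per the labels' protocols. Barcodes with at least 500 genes, at least 1000 UMIs and at most 10% mitochondrial UMIs passed. Scrublet in scanpy 1.11.5 scored doublets, of which the top 0.8% per 1000 barcodes were taken out. Kept cells of all libraries were clustered together (counts scaled to 10000 per cell, log-transformed, 2000 variable genes, 30 principal components, 15 neighbours, Leiden at resolution 1, seed 0), without the members, Xist, Y-linked and mitochondrial genes, which gave 28 clusters. Classes were named from markers of 13 cell types, where at least 3 of a type were detected in at least 10% of the cells. Counts were summed per library and class. Log2 differences have 1 CPM added, a gene is measured with at least 20 counts in either library, and a count of 0 allows 3 counts. Poisson and Clopper-Pearson intervals and conditional intervals of ratios are exact and do not cover the spread between animals. Free RNA was not corrected for. Of these steps only the calling of 2-fold differences was tested on simulated counts.

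The members and the 10 other gene lists were chosen with earlier results of these data known. Named genes were the members, per list up to 8 measured genes past 2-fold in the Mll3/4-labelled library, over all cells or within the B-cell progenitor-like class, and up to 3 that do not pass, and the 10 genes most like a member. Not every gene that this rule takes in is reported here. Of 32285 gene identifiers, 32235 were in GENCODE M21. Alternatives were trimmed mean scaling (edgeR 4.0.16), another pseudocount, other filters, clusterings and definitions of the class, and averaging over cells.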

Additional observations from a re-analysis of the deposited data

Results flagged for a closer look

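Barcodes under the minimum of 1000 UMIs were left out of every main comparison and entered only the alternative over all barcodes. A pair of members gave signal there above the control library. In the Mll3/4-labelled library 125 such barcodes held 182 Gria2 counts, 1904 CPM (1637 to 2201), against 0 counts in 1103 control barcodes, which allows up to 4.34 CPM. In the Mll4-labelled library 745 such barcodes held 198 Gria3 counts, 364 CPM (315 to 418), against 26 counts and 37.7 CPM (24.6 to 55.2) in control. Whether these barcodes are cells was not tested.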

How the results depend on the processing

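The 19 results were recomputed under alternatives that gave 121 values, of which 92 moved by less than their counting interval, 29 moved further and 0 changed the sign of a difference whose interval left out 0. With 0.1 CPM added in place of 1, Gria2 over all cells was at -1.21 in the Mll3-labelled and 10.09 in the Mll3/4-labelled library, and at -5.02 in the Mll3-labelled B-cell progenitor-like class. With each cell weighted equally, Gria2 over all cells was at -1.51, -0.38 and 7.47 in the Mll3-, Mll4- and Mll3/4-labelled libraries, at -0.10 and 4.14 within the class in the last 2, and at 1.01 between the hashtags, and Gria3 at 1.67 (Mll4, all cells) and -0.56 (Mll3/4, class). Trimmed mean scaling gave Gria3 of the Mll4-labelled library 1.77 over all cells and 0.81 in monocyte/macrophage progenitor-like cells. All barcodes gave Gria2 8.73 (Mll3/4) and Gria3 1.76 (Mll4) and -0.90 (Mll3/4), and no doublet removal gave Gria3 1.77 (Mll4). Drawing the class by the B220 antibody gave Gria2 5.80 and Gria3 -0.66, and by UMIs of 3 B-lineage genes Gria3 -0.44, in the Mll3/4-labelled library. That antibody was found on 98.9% of the control and 14.0% of the Mll3/4-labelled class. Without the control cell of 13 UMIs, chosen after seeing the data, Gria2 was at 5.63. Assigning the hashtag with the larger count, also chosen afterwards, gave 0.995, just under 2-fold. The share of Mll3/4-labelled cells with a Gria2 UMI was 56.4% at 2000 UMIs, 76.4% at 5000, 84.1% unthinned and 59.7% in B220-positive cells. At 5000 UMIs the share was 1.45% in control and 0 in the single-deletion libraries. The deepest cells of the class with a Gria2 UMI had 3139 UMIs in the Mll3-labelled and 4614 in the Mll4-labelled library. All positive cells of these libraries were thus left out at 5000 UMIs, and the 0 does not show absence. The cause of these shifts was not tested. No paired analysis was possible because each group had 1 library, and for the same reason no replicate could be left out.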
